A study of Mus musculus with 11 samples.

Results

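The cytosolic ribosomal protein genes encode the proteins of the ribosome that translates nuclear mRNA. They were taken as the rows of both expression tables named Rpl or Rps with a number, including the paralogs whose names end in l or l1, together with Rplp0, Rplp1, Rplp2 and Rpsa. The rule matched 82 of 20475 rows in each table, and 79 of them, 48 of the large and 31 of the small subunit, had a mean of at least 10 normalised read counts and were tested. They stood among 13938 genes tested in the germline table and 14081 in the inducible table. The rule used names and levels only, not the difference between genotypes.

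Poly(A) RNA of E12.5 mouse forebrain, called cortex in the methods, was sequenced from Kif20a knockout embryos and their wild-type littermates. Kif20a encodes a kinesin of the mitotic spindle midzone. The germline comparison had 3 wild-type and 3 homozygous knockout-first libraries, in which an inserted LacZ-neomycin cassette disrupts Kif20a, in a line that goes back to the 1 embryonic stem cell clone that gave chimeras, crossed with C57BL/6J. The inducible comparison had 2 control libraries (Kif20a fl/fl) and 3 knockout libraries (Nestin-CreERT2; Kif20a fl/fl), and mothers of both groups received tamoxifen at E9.5 and E10.5. Cre activity there was thus limited to cells that use the Nestin promoter, and the floxed allele was carried by the controls too. Nothing in the labels ties a library to an animal beyond its replicate number, so p-values measure the spread between these libraries. In bulk tissue, fewer cells of a type and less RNA per cell cannot be told apart.

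Each ribosome holds 1 copy of most ribosomal proteins, and their synthesis is coordinated so that both subunits are made in step. The genes are among the most active of a dividing cell, and their mRNAs carry a pyrimidine tract at the 5′ end, the TOP motif, through which the mTOR pathway controls their translation as a group. Because of that control, mRNA level and protein output can part, and only mRNA was measured here. Neural progenitors of the early cortex divide rapidly and make many ribosomes. Extra copies of these genes are scattered through mammalian genomes as processed pseudogenes, which bears on how reads are assigned.

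Sequence features at the transcription start were more frequent among the members than among all genes, although they were not found at the annotated starts of most members. RefSeq starts (GRCm38.p6) were found for 62 of the 82 members. A start on C followed by 4 pyrimidines (C or T), read on the gene's own strand, was present in 13 of these 62 genes (21%) and in 3.01% of the 27025 genes of the same table. The match was read at the exact annotated base, so a start annotated some bases away would be missed. The share is therefore not a count of the members that carry the TOP motif. The letters CCGGAAG, the core bound by ETS-family factors, lay on either strand in the 300 bases around the start (250 before, 50 after) in 40.3% of the members and 9.93% of all genes. These letters are a description of the window and were not tested for use by a factor. The windows below run from 45 bases before to 15 bases after the annotated start, with CCGGAAG and the pyrimidine run at a TOP-like start in capitals. They show 3 genes chosen from the 13 with a TOP-like start (Rplp2, which had the largest germline difference, Rps21, which passed in the inducible comparison, and Rps6, the usual reporter of mTOR activity) and the 3 expressed paralogs.
Rplp2 (chr7:141447606-141447665, plus strand): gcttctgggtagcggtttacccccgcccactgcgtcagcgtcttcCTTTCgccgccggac
Rps6 (chr4:86857353-86857412, minus strand): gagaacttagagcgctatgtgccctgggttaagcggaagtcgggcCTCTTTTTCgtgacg
Rps21 (chr2:180257334-180257393, plus strand): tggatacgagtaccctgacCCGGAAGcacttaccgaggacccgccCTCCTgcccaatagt
Rps27l (chr9:66946041-66946100, plus strand): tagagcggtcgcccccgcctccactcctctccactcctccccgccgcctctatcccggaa
Rpl7l1 (chr17:46782642-46782701, minus strand): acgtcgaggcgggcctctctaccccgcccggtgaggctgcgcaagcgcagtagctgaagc
Rpl22l1 (chr3:28805463-28805522, plus strand): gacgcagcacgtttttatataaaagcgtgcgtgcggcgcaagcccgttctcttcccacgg

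The annotated starts shown for Rps27l, Rpl7l1 and Rpl22l1 had no TOP-like start, and neither did those of most members. Read only at the annotated base, the match cannot show whether the paralogs differ from the other members in this feature. Rps21 and Rps27l each have a further annotated start, not shown, which had no TOP-like start.

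Members were expressed at high levels throughout. Over all libraries the lowest and highest normalised read counts were 509 (Rps27l) and 21760 (Rplp0) in the germline table, and 1004 (Rps27l) and 24350 (Rplp0) in the inducible table. If a normalised count is taken as 1 read, counting error alone is 4.4% of the lowest and 0.68% of the highest germline value. Levels per kilobase of transcript were taken for the 78 tested members with a coding transcript. Rpl41, with a germline wild-type mean of 12380 normalised counts, had none and was not ranked. Among those ranked, the highest germline wild-type means were those of Rps4x (15780 normalised counts per kb), Rpl32 (15270), Rps23 (14880), Rpl26 (14380) and Rps26 (14110). The lowest were Rpl7l1 (658.1), Rps20 (1567), Rps27l (1748), Rpl37 (2400) and Rps21 (2551), where the annotated transcripts of Rps20 (3706 bases) and Rpl7l1 (2606 bases) are the longest of the 5. Before division by length, Rps20 had a germline wild-type mean of 5808 normalised counts, so its place depends on the transcript length used. The median level was 7395 normalised counts per kb over the large and 10030 over the small subunit. Rpl39l, Rpl3l and Rpl10l, paralogs known from testis or muscle, were the members below the threshold, with germline means of 0.975, 1.1 and 0 normalised counts.

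Copies elsewhere in the genome limit how exactly reads were assigned to these rows. A coding transcript was found in the GENCODE annotation of the files' build (NCBIM37, mm9) for 78 of the 79 tested members. In 54 of them over 90% of the coding stretches of 31 bases also occurred outside the gene, with a median of 96.2% over the members. The coding stretches of Rpl8 (11.2%) and Rps3 (18.9%) were among the most nearly unique, and those of Rps6, Rpsa, Rpl28 and Rps27 were copied in full (100%). Some near-identical copies had rows of their own, with counts close to those of the member. Whether the same reads were counted in both rows was not tested. Rps27rt, a copy outside the rule, held 99.5% to 99.8% of the count of Rps27 in the 6 germline libraries, Rpl34-ps1 held 99.3% to 99.7% of that of Rpl34, and Rpl31-ps12 held 103% to 108% of that of Rpl31. The sources do not say how reads with several alignments were treated, so the level of such a member is uncertain, whereas its difference between genotypes is uncertain only as far as the copies changed differently.

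Kif20a itself was low in every knockout library, as the labels require. It had 2456, 2295 and 2680 normalised counts in germline wild-type and 408.8, 373.6 and 503.4 in knockout libraries (log2 difference -2.54, SE 0.15, adjusted p = 0.00845 by limma). The inducible values were 4760 and 4844 in control and 3125, 2915 and 2853 in knockout libraries (-0.70, SE 0.057, adjusted p = 0.0107). Germline knockout replicate 2 stood apart in its cell type markers. Its summed erythroid markers came to 38300 normalised counts against 105000 to 174000 in the wild-type libraries, its cranial mesenchyme markers to 602 against 5230 to 9140, and its microglia markers to 35.7 against 737 to 1340. Knockout replicates 1 and 3 also lay outside the wild-type range in cranial mesenchyme markers, above it, with 22200 and 11300. All 18 neuronal and 15 radial glial markers in the table passed the mean of at least 10, and neuronal markers summed to 59600 to 73000 in wild-type libraries, to 128000 in knockout replicate 2 and to 32300 and 39300 in knockout replicates 1 and 3. Radial glial markers summed to 111000 to 114000 in wild-type and 87500 to 102000 in germline knockout libraries. Yet 9 of the 15 lay above 0 (beside 44% of all genes tested), with a median log2 difference of 0.096. By knockout library the median was 0.16, -0.013 and 0.015. At an unadjusted limma p of at most 0.05, 2 of them were lower (13.3% beside 2.45% of all genes) and 0 higher (beside 2.93%). Y-linked genes summed to 1.96 and 4.24 in the inducible controls and 2390 to 3210 in the inducible knockouts, so embryo sex and genotype cannot be told apart in that comparison. In the germline libraries the Y-linked sum ran from 9.83 to 4580 in wild-type and from 0 to 1380 in knockout libraries.

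In the germline knockout the ribosomal protein genes lay slightly above their wild-type level as a group. No member passed an adjusted p of 0.05, beside 0.00717% of all genes tested. The median log2 difference (knockout minus wild type) was 0.12 over the 48 large-subunit genes, with quartiles of 0.079 and 0.17, and 0.15 over the 31 small-subunit genes, with quartiles of 0.078 and 0.18. The median over all members corresponds to a 1.1-fold level, beside a median of -0.043 over all genes tested and -0.038 over genes with a mean of at least 500. The difference lay above 0 for 73 of 79 members (92.4%), 44 of the large and 29 of the small subunit, beside 44% of all genes tested. Members are not independent replicates, since they shared the libraries, so this count describes 1 shared offset in 6 libraries.

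The library values show how far that offset depended on single libraries. Relative to the wild-type mean, the large-subunit medians were 0.14, -0.029 and -0.11 on the log2 scale in the wild-type libraries and 0.055, 0.27 and 0.042 in the knockout libraries. Small-subunit medians were 0.13, -0.027 and -0.11 in wild-type and 0.077, 0.29 and 0.084 in knockout libraries. The groups overlapped for both subunits, since wild-type replicate 1 lay above knockout replicates 1 and 3, and the highest value belonged to knockout replicate 2, the library with few erythroid, microglial and mesenchymal and the most neuronal marker transcripts. Without that library the medians became 0.044 and 0.081. Without wild-type replicate 1 they became 0.20 and 0.22, and without wild-type replicate 3 the large-subunit median became 0.06. The part of the cell make-up of these libraries in the offset was not tested.

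**Figure D1:**
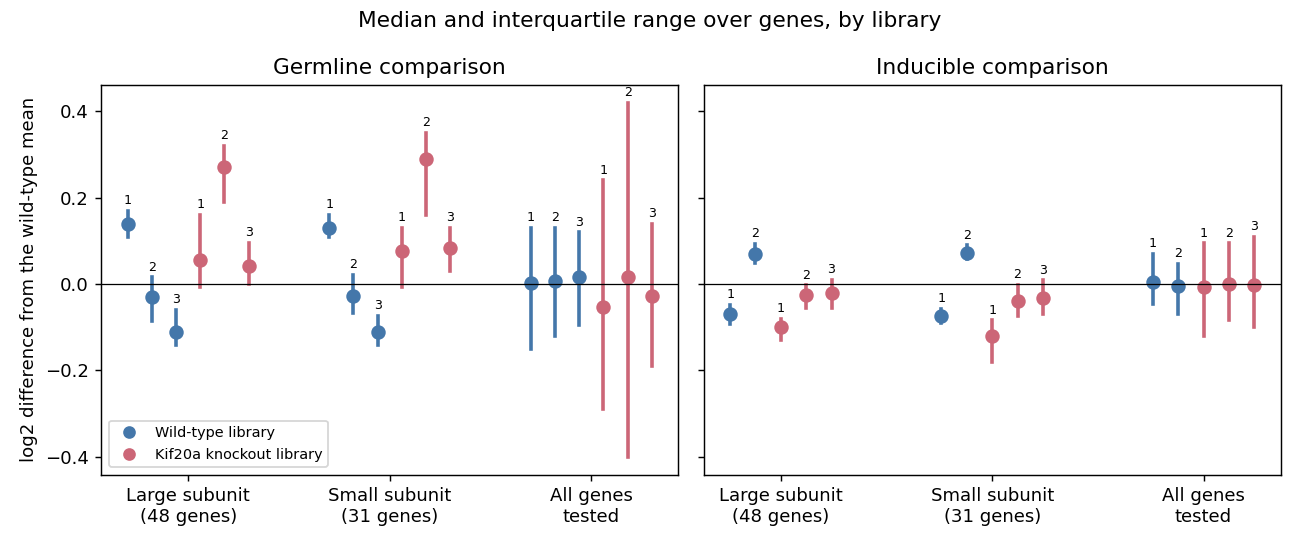
Median (points) and interquartile range (bars) over genes of the log2 difference from the wild-type mean, for each library (replicate number above the bar), in the germline (left) and inducible (right) comparison, wild type in blue and knockout in red. Large and small subunit shift together within each library, and the medians of the knockout and wild-type libraries overlap in the germline comparison (0.042 to 0.27 against -0.11 to 0.14 for the large subunit).

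Within a library the members' values lay close to each other. In the 6 germline libraries the interquartile range of the members' values ran from 0.062 to 0.16 on the log2 scale, whereas that of all genes tested ran from 0.22 to 0.82. In germline knockout replicate 2, where all genes spread over 0.82, members spread over 0.16, and 75 of 79 lay above the wild-type mean. The inducible libraries gave 0.037 to 0.073 for members and 0.12 to 0.21 for all genes. High counts alone narrow such a range. Genes with a mean of at least 500 spread over 0.15 to 0.65 in the germline libraries, 0.65 in knockout replicate 2.

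Members were counted as passing at an unadjusted limma p of at most 0.05, the p-value part of the study's threshold, which also required a fold change of at least 1.5. In the germline comparison 1 member passed in the higher direction (1.27% of members beside 2.93% of all genes tested) and 0 in the lower direction (beside 2.45%). It was Rpl28 (eL28), a large-subunit protein, with 4803, 4314 and 4292 normalised counts in wild-type and 5486, 6508 and 4956 in knockout libraries. All 3 knockout values lay above the wild-type ones, with a log2 difference of 0.33 (SE 0.14, 95% interval 0.0018 to 0.66, adjusted p = 0.779). The call ended without any 1 of the 3 wild-type libraries and without knockout replicate 1 or 2, with differences from 0.22 to 0.38, and held without knockout replicate 3 (0.42). Groups did not overlap for 5 members, among them Rpl28, Rpl17, Rpl14 and Rps10, all higher in the knockout (6.33% of members beside 5.9% of all genes), and for 0 members in the lower direction (beside 7.55%). Both shares lay near or under the background. No member passed with a fold of at least 1.5 (beside 2.74% of all genes, in either direction), and 0 passed an adjusted p of 0.05 (beside 0.00717%).

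Among large-subunit proteins, the lateral stalk recruits translation factors through Rplp0 and the acidic proteins Rplp1 and Rplp2. Rplp2 had the largest upward difference of any member, with 1600, 1922 and 1483 normalised counts in wild-type and 1904, 2968 and 1679 in knockout libraries. Knockout replicate 2 was far above the rest and the other two lay within the wild-type range, so the log2 difference of 0.35 (SE 0.23, adjusted p = 0.781) rested on that library. Rplp1, its partner in the stalk, had 6981, 5425 and 5631 against 5543, 5943 and 5770, with groups that overlapped (-0.06, SE 0.14). Rplp0, the most abundant member, had 20790, 17910 and 15690 against 17910, 21760 and 18720 (0.11, SE 0.16). The stalk genes thus did not share 1 value, and none of the 3 differed beyond the spread between libraries.

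Rpl5 and Rpl11 form, with 5S rRNA, the particle that binds Mdm2 and stabilises p53 when ribosome assembly is disturbed. Rpl5 had 14600, 12190 and 12910 normalised counts in germline wild-type and 15110, 15520 and 13300 in knockout libraries (log2 difference 0.15, SE 0.14, 95% interval -0.18 to 0.47). Rpl11 had 5513, 4918 and 4964 against 5335, 5588 and 5033 (0.05, SE 0.12, 95% interval -0.22 to 0.32). Both overlapped between genotypes. Rpl3, which lies at the peptidyl transferase centre, differed by 0.10 (SE 0.12), Rpl10, which joins the large subunit last, by 0.19 (SE 0.13), and Rpl22 by 0.14 (SE 0.13). Rpl32, Rpl17 and Rpl37 followed Rplp2 and Rpl28 at the upper end with 0.24, 0.24 and 0.22, and only Rpl17 of these had groups that did not overlap.

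On the small subunit, Rps6 is the protein phosphorylated by S6 kinase and the usual reporter of mTOR activity. It had 11860, 10870 and 10810 normalised counts in wild-type and 13340, 11790 and 12130 in germline knockout libraries, and wild-type replicate 1 lay just above knockout replicate 2 (0.15, SE 0.12, adjusted p = 0.805). Rps19, the gene most often mutated in Diamond-Blackfan anaemia, had the largest upward small-subunit difference, with 5116, 4524 and 4148 against 5048, 6072 and 5043 (0.23, SE 0.14, adjusted p = 0.779). Rps3, at the mRNA entry site, and Rpsa, the laminin receptor precursor, differed by 0.10 (SE 0.13) and 0.02 (SE 0.14). Rps27a, which is made as a fusion to ubiquitin, had 8494, 6590 and 6952 normalised counts against 7094, 8039 and 7400, again with overlap. Rps21 differed by -0.05 (SE 0.19) and Rpl27 by -0.0013 (SE 0.12), which with Rplp1 and the 3 expressed paralogs were the members not above 0.

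**Figure D2:**
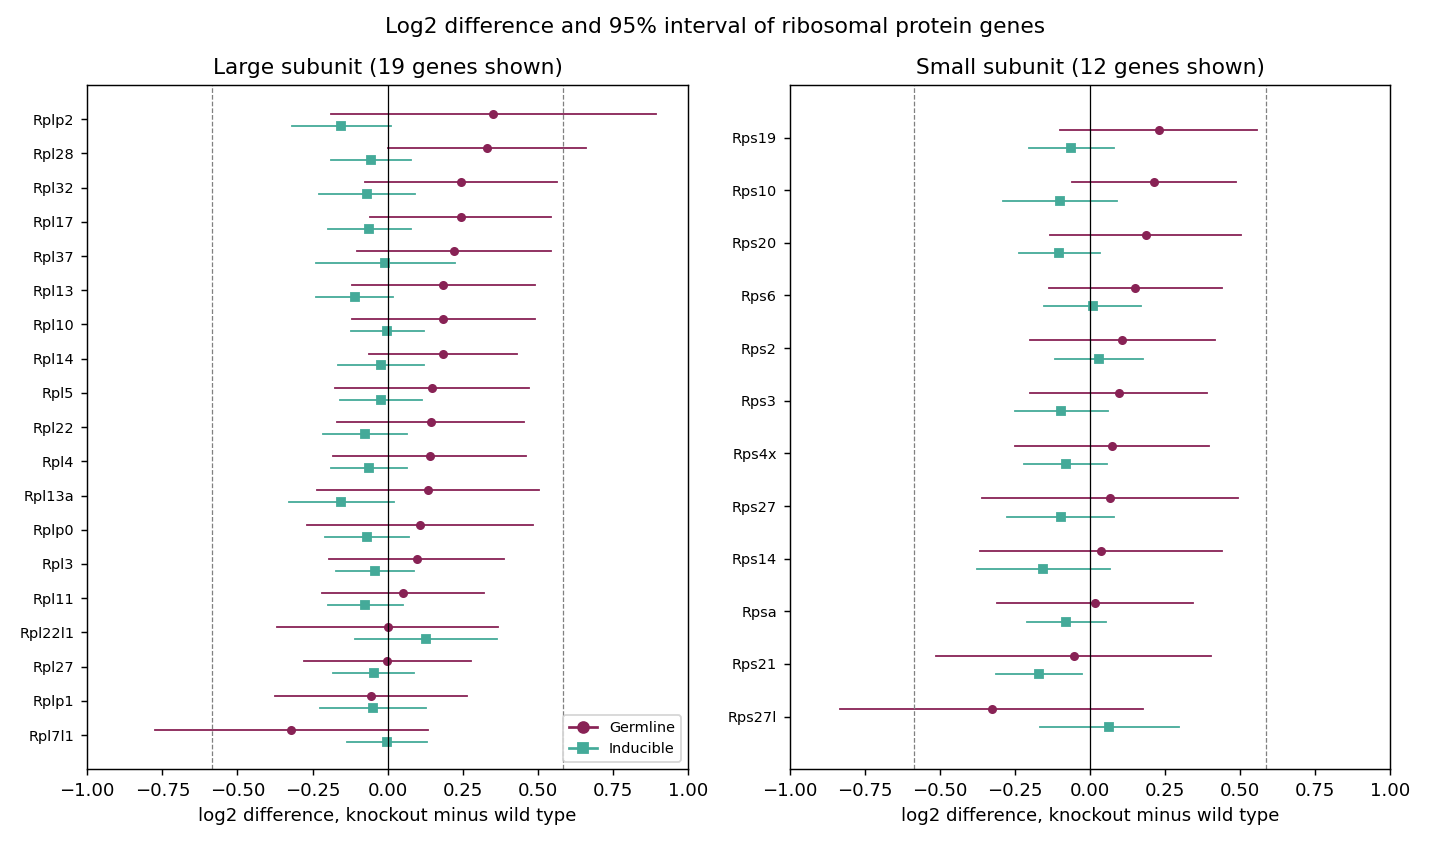
Log2 difference, knockout minus wild type (point), and 95% interval (line) of large-subunit (left) and small-subunit (right) genes named in the text, germline in purple circles and inducible in green squares, ordered by the germline value, with dashed lines at a 1.5-fold difference. Over all members tested, germline differences are above 0 for 73 of 79 and inducible ones for 4 of 79, and the 2 lowest germline points are the paralogs Rps27l and Rpl7l1.

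The intervals set a limit on what could have gone unseen. The 95% interval of the germline difference lay within 1.5-fold in both directions for 72 of 79 members (91.1%), beside 31% of all genes tested, and within 2-fold for all 79 (beside 66.5%). For the inducible difference it lay within 1.5-fold for all 79 (beside 77.4% of all genes). That limit holds for a partial loss of Kif20a, from a mean of 4802 normalised counts in the controls to 2964 in the knockouts. Embryo sex could not be told apart from genotype there.

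In the inducible knockout the members were slightly lower than in the controls, and the offset depended on 1 control library. The median log2 difference was -0.053 over the large-subunit genes, of which 1 of 48 lay above 0, and -0.064 over the small-subunit genes, of which 3 of 31 lay above 0, beside -0.0019 over all genes tested, 49.2% of which lay above 0. The large-subunit medians by library were -0.07 and 0.07 in the controls and -0.10, -0.026 and -0.021 in the knockouts. Small-subunit medians were -0.073 and 0.073 in the controls and -0.12, -0.038 and -0.032 in the knockouts. Control replicate 2 was the highest of the 5 libraries, and knockout replicates 2 and 3 lay between the controls. Without control replicate 2 the medians turned to 0.013 and 0.0039, and without control replicate 1 they became -0.12 and -0.14. Every germline knockout library above and every inducible knockout library below its own wild-type mean was seen for 28 of 79 members (35.4%, beside 5.18% of the genes tested in both tables), and the reverse for 0 (beside 5.63%). Members shared their libraries, so these are not separate observations.

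Choroid plexus and hem markers were lower in the inducible knockouts, with 5 of 12 past the unadjusted p in that direction (41.7% beside 3.03% of all genes), a median of -0.53, and sums of 10100 and 11700 normalised counts in the controls against 9580, 8740 and 5550 in the knockouts. Microglia markers summed to 1140 to 1280 in the controls and 1350 to 1670 in the knockouts, with 2 of 12 past it in the higher direction (16.7% beside 2.98%). Cranial mesenchyme markers had 2 of 11 past it in that direction (18.2%), with sums of 12400 to 19700 in the controls and 14800 to 17300 in the knockouts. Endothelium markers had 0 of 12 past it, and all 12 lay above 0 (beside 49.2% of all genes). Radial glial markers had 2 of 15 past it in the lower direction (13.3% beside 3.03%). Their median was -0.035, with 6 of 15 above 0, and sums were 198000 to 205000 in the controls and 198000 to 216000 in the knockouts. The part of these cell types in the members' values was not tested.

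At the same p, 0 inducible members passed in the higher direction (beside 2.98% of all genes) and 2 in the lower direction (2.53% of members beside 3.03% of all genes). Rps21, a small-subunit protein, had 1165 and 1148 normalised counts in the controls and 1011, 1069 and 1007 in the knockouts, all 3 below the controls (log2 difference -0.17, SE 0.061, 95% interval -0.31 to -0.03, adjusted p = 0.825). Its call ended without knockout replicate 1 (-0.16) and without knockout replicate 3 (-0.15). The difference was -0.16 without control replicate 1 and -0.18 without control replicate 2. Without either control replicate a single control library was left, so no call or count of members passing is given for those fits. Groups did not overlap for 9 members, all lower in the knockouts (among them Rps21, Rplp2, Rpl13, Rps20, Rpsa and Rpl4), which is 11.4% beside 12.2% of all genes, and for 0 in the higher direction (beside 10.4%). No inducible member passed with a fold of at least 1.5 (beside 1.29% of all genes, in either direction).

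Individual inducible members lay within a narrow band. Rplp2 had 2689 and 3096 normalised counts in the controls and 2566, 2673 and 2541 in the knockouts (-0.15, SE 0.070), which put the member with the largest upward germline difference among the 4 lowest here. Rps14 (-0.16, SE 0.095) and Rpl13a (-0.15, SE 0.075), whose product also takes part in a translation-silencing complex, also lay at the lower end. Rpl5 (-0.02, SE 0.058), Rpl11 (-0.07, SE 0.053), Rplp0 (-0.07, SE 0.060), Rplp1 (-0.05, SE 0.076), Rps3 (-0.10, SE 0.066) and Rps19 (-0.06, SE 0.060) lay closer to 0, and none passed. Rps6 was at 0.0087 (SE 0.069) and Rps2 at 0.03 (SE 0.063), and these, Rps27l and Rpl22l1 were the 4 members above 0.

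The X-linked members Rps4x, Rpl10, Rpl39 and Rpl36a were set apart because Y-linked genes separated the inducible groups. Rps4x had 17460, 14330 and 14370 normalised counts in germline wild-type and 16310, 16660 and 15430 in knockout libraries, and 18800 and 20430 against 18010, 18600 and 18980 in the inducible comparison. Its log2 difference was 0.07 (SE 0.14) and -0.08 (SE 0.059). Across the 4 X-linked genes the difference ran from 0.07 to 0.19 in the germline and from -0.08 to -0.00066 in the inducible comparison, within the range of the autosomal members.

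Of the 3 expressed paralogs, Rps27l and Rpl7l1 had the lowest germline differences of all members and Rpl22l1 was near 0, and none passed. Rps27l (chr9:66793893-66797323 of NCBIM37, plus strand), a paralog of Rps27 known as a p53 target, encodes 84 amino acids as Rps27 does, and 76.1% of their coding bases are identical. The first 60 coding bases, with the 18 that differ in capitals, show how far the pair differs over the length of a short read.
Rps27: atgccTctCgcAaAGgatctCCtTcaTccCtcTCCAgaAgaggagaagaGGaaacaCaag
Rps27l: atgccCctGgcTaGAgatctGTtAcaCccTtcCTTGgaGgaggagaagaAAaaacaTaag

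Rps27l had 922.8, 825 and 868.6 normalised counts in germline wild-type and 738.6, 508.7 and 892.2 in knockout libraries. Knockout replicates 1 and 2 lay below every wild-type library and replicate 3 within their range (log2 difference -0.33, SE 0.21, adjusted p = 0.781). Rps27 had 3538, 3258 and 2853 against 2904, 4289 and 3030, with knockout replicate 2 the highest library of Rps27 and the lowest of Rps27l (0.07, SE 0.18). In the inducible comparison Rps27l had 1004 and 1272 in the controls and 1186, 1187 and 1173 in the knockouts (0.06, SE 0.099), and Rps27 had 4535 and 5171 against 4218, 4717 and 4657 (-0.10, SE 0.077).

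Rpl7l1 (chr17:46910856-46919605, minus strand), whose coding sequence matches that of Rpl7 in 62.6% of aligned bases, showed a similar order of libraries to Rps27l. It had 1776, 1738 and 1631 normalised counts in germline wild-type and 1386, 1057 and 1763 in knockout libraries (-0.32, SE 0.19, adjusted p = 0.779). Knockout replicates 1 and 2 were again below every wild-type library, and replicate 3 among them. Without knockout replicate 3 the differences of Rps27l and Rpl7l1 were -0.51 and -0.50, and both then passed the unadjusted threshold. Rpl7l1 had 2874 and 3137 against 3068, 2976 and 2960 in the inducible comparison (-0.00094, SE 0.057), where knockout replicates lay within the control range.

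Rpl22l1 (chr3:28704358-28706274, plus strand), a paralog of Rpl22 with 70.2% of aligned coding bases identical, had 1871, 1318 and 1528 normalised counts in germline wild-type and 1472, 1661 and 1541 in knockout libraries. The knockout values lay within the wild-type range, and the fitted log2 difference was -3.5e-05 (SE 0.16). In the inducible comparison it had 1484 and 1907 against 1806, 1823 and 1882, the largest upward difference of a member there (0.13, SE 0.10, adjusted p = 0.884). The 3 knockouts lay between the controls. Without control replicate 2 the difference was 0.31, with a single control library left. Rpl22 had 5221, 4607 and 4750 against 5256, 6075 and 4815 in the germline (0.14, SE 0.13) and 6124 and 6743 against 5909, 6267 and 6116 in the inducible comparison (-0.08, SE 0.059).

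**Figure D3:**
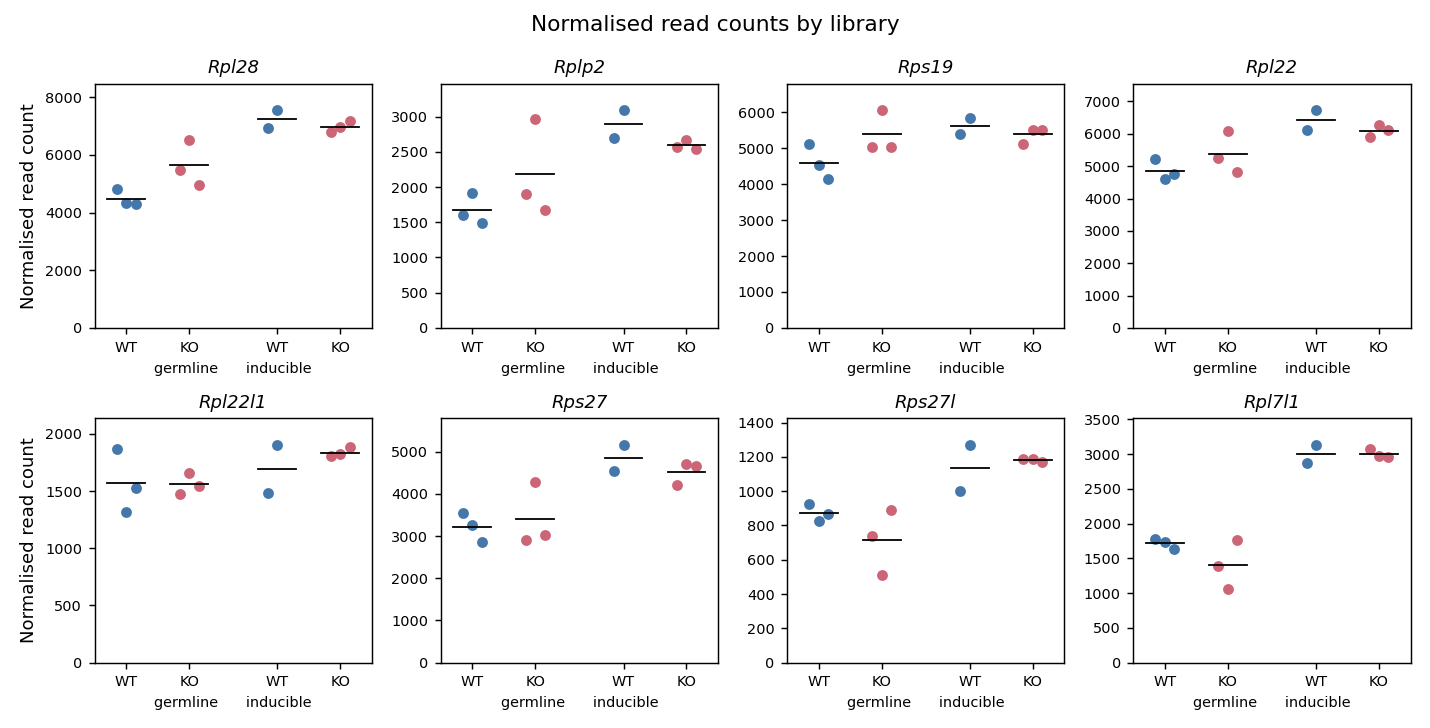
Normalised read count of 8 members in each library (points, wild type in blue, knockout in red) with the group mean (line), germline left and inducible right in each panel, on axes that start at 0. Rpl28 is higher in all 3 germline knockout libraries than in wild type, Rplp2 is high in 1 of them (2968), and Rps27l and Rpl7l1 are low in 2 of 3. The 2 tables were normalised separately, so levels are not compared across them.

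As a share of the summed normalised count, the members took 4.31%, 3.77% and 3.58% in germline wild-type and 4.23%, 4.07% and 4.28% in knockout libraries. The means were 3.89% ± 0.38 (SD, n = 3) and 4.2% ± 0.11 (SD, n = 3; two-sided exact permutation p = 0.4, with 0.1 the smallest p possible). Inducible shares were 2.9% and 3.17% in the controls and 2.79%, 3% and 2.97% in the knockouts, with means of 3.03% ± 0.19 (SD, n = 2) and 2.92% ± 0.11 (SD, n = 3; exact permutation p = 0.6, with 0.1 the smallest possible). Neither pair of groups differed beyond the spread between libraries, and the inducible difference turned from -0.11 to 0.024 percentage points without control replicate 2. Germline wild-type replicate 1 held the highest share of all. The ratio of large- to small-subunit counts was steadier, between 1.42 and 1.47 in the germline and between 1.51 and 1.53 in the inducible libraries, so the balance between subunits moved less than the total.

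**Figure D4:**
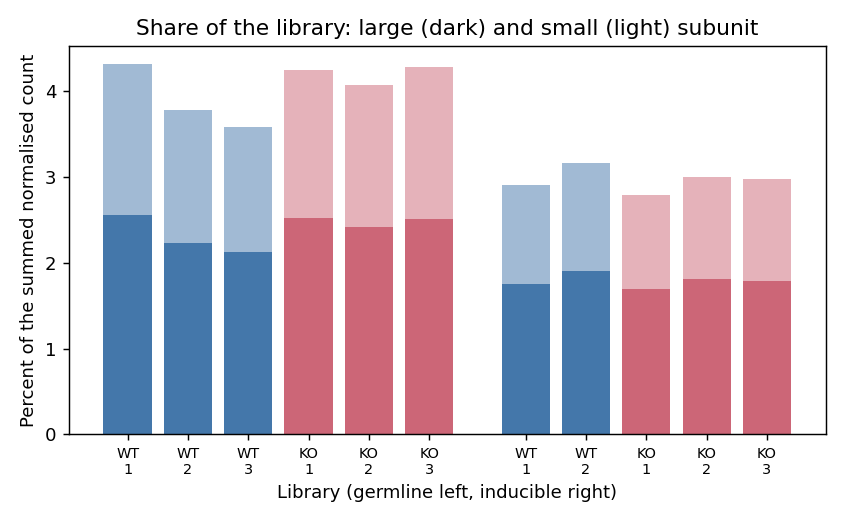
Share of the summed normalised count (percent, axis from 0) taken by large-subunit (dark) and small-subunit (light) genes in each library, wild type in blue and knockout in red, germline left and inducible right. Germline libraries lie between 3.58% and 4.31% and inducible ones between 2.79% and 3.17%, with knockout libraries inside the wild-type range in the germline comparison.

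Genes of other steps of ribosome production had other medians. Of 43 tested ribosome biogenesis genes, 4 passed the unadjusted threshold in the lower direction in the germline knockout (9.3% beside 2.45% of all genes) and 0 in the higher (beside 2.93%), with a median log2 difference of -0.23 and 6 of 43 above 0 (44% of all genes). The 4 were Rpf2 (-0.55, SE 0.23) and Nip7 (-0.46, SE 0.19), which act on pre-rRNA during assembly of the subunits, Tsr1 (-0.44, SE 0.17), which acts on the small subunit, and Rrn3 (-0.37, SE 0.13), the RNA polymerase I initiation factor, and none passed an adjusted p of 0.05. By library the list's median was -0.28, -0.30 and 0.017 in the knockouts and between -0.071 and 0.049 in the wild type, so 2 of 3 knockout libraries were low. Among the inducible libraries 0 passed (beside 2.98% of all genes higher and 3.03% lower). There 36 of 43 lay above 0 (beside 49.2% of all genes), with a median of 0.066.

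The mitochondrial ribosome, a separate particle of bacterial type encoded by Mrpl and Mrps genes, had a median near that of the biogenesis list. Of 76 tested genes, 3 passed in the lower direction in the germline knockout (Mrpl41, -0.60, SE 0.22, with Mrps24 and Mrps23), a share of 3.95% that lay near the 2.45% of all genes. Over the list, 8 lay above 0 (beside 44% of all genes), with a median of -0.21. Its medians in the knockout libraries were -0.23, -0.32 and -0.028. In the inducible comparison 1 passed in the higher direction (Mrpl37, 0.14, SE 0.060, 1.32% beside 2.98% of all genes) and the median was 0.0099. Of 36 translation factors, 0 passed in the germline (beside 2.93% of all genes higher and 2.45% lower), with a median of -0.035. In the inducible comparison 1 passed, the X-linked Eif2s3x in the lower direction (-0.52, SE 0.056, adjusted p = 0.0581, 2.78% beside 3.03% of all genes), where Y-linked genes also separated the groups.

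Ribosomal and associated genes that the rule left out came near the members. Over 9 such genes the median was 0.14 (germline) and -0.024 (inducible). In the germline 0 passed (beside 2.93% of all genes higher and 2.45% lower), and 0 in the inducible comparison (beside 2.98% and 3.03%). Fau, which encodes Rps30 fused to a ubiquitin-like protein, had 3237, 3020 and 2793 normalised counts in germline wild-type and 3458, 4367 and 3198 in knockout libraries (0.27, SE 0.15). Gnb2l1, which encodes the small-subunit scaffold RACK1, differed by 0.15 (SE 0.14). Naca, of the nascent chain complex, differed by 0.13 (SE 0.14), and its partner Btf3 by -0.02 (SE 0.12). Rpl36al, the autosomal copy of Rpl36a, differed by -0.08 (SE 0.14).

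**Figure D5:**
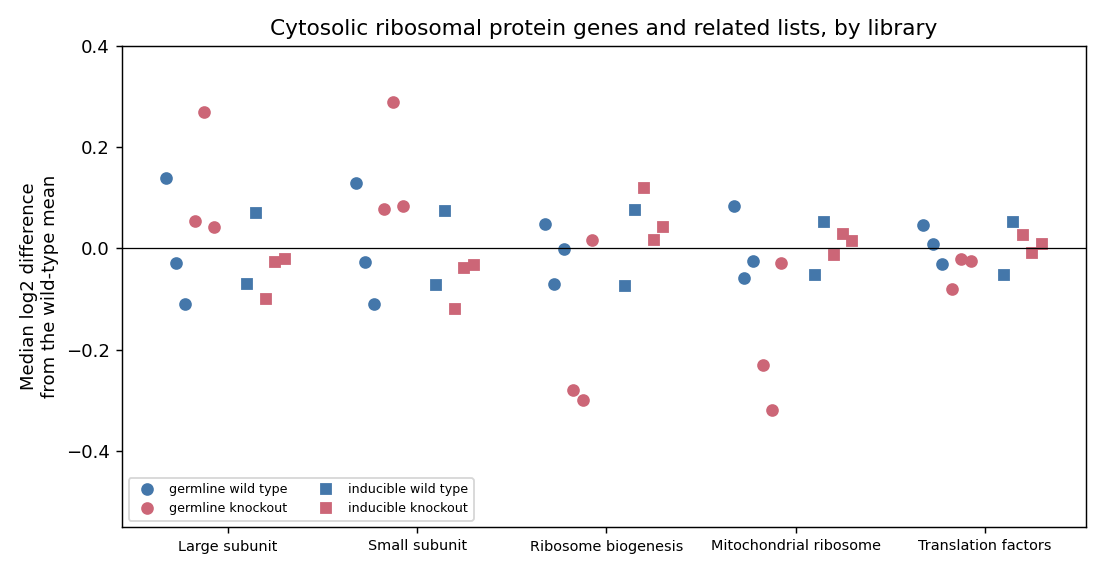
Median log2 difference from the wild-type mean over the genes of each list, by library, germline as circles and inducible as squares, wild type in blue and knockout in red. In germline knockout replicates 1 and 2 ribosome biogenesis (-0.28, -0.30) and the mitochondrial ribosome (-0.23, -0.32) lie below 0 while both ribosomal subunits lie above it (0.055 to 0.29).

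Hypoxia and glycolysis genes were higher in the germline knockout, with 20 of 28 past the unadjusted threshold in that direction (71.4% beside 2.93% of all genes) and a median of 1.3. That list's medians by knockout library were 1.7, 2.4 and 0.20, so knockout replicate 2 was highest for it and for the ribosomal members. The order did not hold for the other knockout libraries. Replicate 1 (1.7) had subunit medians of 0.055 and 0.077, near the 0.042 and 0.084 of replicate 3 (0.20). Replicate 3, near the wild type in this list, was near it in Rps27l and Rpl7l1 too. The part of this list in the members' values was not tested.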

How the data were processed

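Members, gene lists and alternatives were chosen with earlier results of these data known. The signal deposited by the authors is a table of normalized read counts per gene for each comparison. Per the study's methods, poly(A) libraries were sequenced on a HiSeq2000, reads were aligned to mm9 with TopHat (1.2.0 in the submitters' processing notes, another version in the methods) and counted once per gene on RefSeq exons, and counts were normalized in edgeR (trimmed mean of M-values), a scaling that would hide a change shared by most genes. Values are neither length-scaled nor logged, nor whole multiples of a read, so no count model was fitted and depth is unknown. Totals of 13048716 to 15551274 (germline) and 24118520 to 24497307 (inducible) normalized counts do not show it. Strand and reads with several alignments are not given in the sources used here. No per-sample column was left unused (0).

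Values were taken as log2(count + 1), and genes with a mean of at least 10 were fitted with limma 3.58.1 in R 4.3.3 (trended eBayes, two-sided, Benjamini-Hochberg over all genes tested). Fold changes are on that scale. The fit was tested on simulated data. Named members are Kif20a, those named in the membership rule, stalk, decoding and p53-linked proteins, Rps27a, X-linked members, paralogs, the 5 largest differences in each direction, members past a threshold, and the 5 highest and lowest levels per length. Rps2 and other members outside these were named after their values were seen. Some members are counted but not reported here by name. Lengths are the shortest GENCODE vM1 transcript with both ends and the chosen coding sequence.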

Additional observations from a re-analysis of the deposited data

Results flagged for a closer look

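The subunit medians lay on opposite sides of the wild-type mean in the germline and the inducible knockout libraries. In the germline comparison the large-subunit median of the 3 knockout libraries ran from 0.042 to 0.27 on the log2 scale and the small-subunit median from 0.077 to 0.29, all above the wild-type mean. In the inducible comparison the large-subunit median ran from -0.10 to -0.021 and the small-subunit median from -0.12 to -0.032, all below it. Of the 79 members, 28 had every germline knockout library above and every inducible knockout library below the wild-type mean (35.4% beside 5.18% of the 13741 genes tested in both tables), and 0 had the opposite pattern (beside 5.63%). Members share 1 offset in each library, so this count is not 28 separate observations. The difference between the comparisons was not tested, since the tables were normalized separately. Each side rests on few wild-type libraries, which themselves ran from -0.11 to 0.14 in the germline large-subunit medians.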

How the results depend on the processing

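The germline subunit medians stayed above 0 in all alternatives run (large subunit 0.044 to 0.20, small subunit 0.081 to 0.22). The log2 difference of Kif20a kept its direction throughout, and its side of the threshold in every fit with more than 1 library in each group. The number of members called fell from 1 to 0 in the germline comparison without a filter on low values, with quantile normalization, with the replicate block and with a Y-linked covariate, and ran from 0 to 3 when 1 library was left out. The number called fell from 2 to 1 in the inducible comparison without a filter, with median-of-ratios rescaling, equal totals, quantile normalization, array weights and the replicate block, and ran from 0 to 11 when 1 library was left out. Leaving out 1 library moved the inducible medians between -0.12 and 0.013 (large subunit) and between -0.14 and 0.0039 (small subunit), and the share difference between -0.24 and 0.024 percentage points.

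Germline samples with the same replicate number correlated in their deviations from the group means at -0.12, 0.31 and 0.25. Those with different numbers ran from -0.36 to 0.33. The inducible values for the same number were -0.35 and -0.051, and with 2 controls each value there mirrors another. These correlations neither show nor exclude a pairing by number. With the replicate block the medians were 0.12 and 0.15 (germline), and -0.067 and -0.081 (inducible).

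Named members near 0 changed sign. None of these passed the unadjusted threshold in a fit with more than 1 library in each group. In the germline comparison Rpl27 and Rpl22l1 turned to 0.0341 and 0.0353 with median-of-ratios rescaling and to 0.0151 and 0.0647 with the Y-linked covariate, Rpl22l1 to 0.00315 with quantile normalization, and Rps27 to -0.0401 with array weights and -0.0164 with the covariate. In the inducible comparison Rpl7l1 turned to 0.00389 with median-of-ratios rescaling, 0.00323 with equal totals and 0.00898 with the replicate block, and Rps6 to -0.0226 with the block. Leaving out 1 library gave germline ranges of -0.234 to 0.118 (Rps21), -0.0409 to 0.0599 (Rpl27), -0.12 to 0.133 (Rpl22l1), -0.111 to 0.17 (Rps27), -0.125 to 0.057 (Rplp1) and -0.0612 to 0.0764 (Rpsa). The inducible ranges were -0.0821 to 0.041 (Rpl5), -0.0541 to 0.308 (Rpl22l1), -0.0559 to 0.0734 (Rps6), -0.0514 to 0.113 (Rps2), -0.064 to 0.0621 (Rpl7l1), -0.162 to 0.0649 (Rplp1) and -0.106 to 0.235 (Rps27l). The cause was not tested. Depth is unknown, so the precision of the lowest members, Rps27l and Rps21, cannot be set apart from the spread between libraries.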
